A study of Homo sapiens with 6 samples.

Results

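The 10 genes described here are PDCD4, an inhibitor of translation initiation, and 9 genes of the eIF4F complex and its regulators: EIF4A1, EIF4A2, EIF4A3, EIF4G1, EIF4G2, EIF4G3, EIF4E, EIF4EBP1 and EIF4EBP2. They were taken by name from the 33451 genes of the deposited count table, and all 10 were listed and passed the filter on low counts that left 18183 genes. PDCD4 was chosen by its rise in these same libraries, so its values are given as a description without a test. The other 9 genes were taken for their role, with earlier results of these data known, and were tested over all genes. The RNA came from MDA-MB-453, an established human breast cancer cell line. Culture lasted 5 days in the presence of 100 nM 25(OH)D, the circulating form of vitamin D, or of solvent as the control, and 3 libraries of stranded, paired-end mRNA sequencing were made from each group. No allele or transgene distinguishes the groups, and a single cell line was used. The labels do not say whether the 3 libraries of a group came from separate cultures, so the p-values measure the spread between these libraries, which may be technical.

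Most mRNAs enter translation through the cap at their start. The cap is bound by eIF4E, which sits with the RNA helicase eIF4A on the scaffold eIF4G, and together these proteins form eIF4F and bring the small ribosomal subunit to the mRNA. PDCD4 holds eIF4A through its MA3 domains, keeps it from eIF4G and from RNA, and is known as a tumour suppressor that growth signalling removes: S6 kinase phosphorylates it, and the ubiquitin ligase subunit BTRC then marks it for degradation. The 4E-binding proteins, encoded by EIF4EBP1 and EIF4EBP2, hold eIF4E away from eIF4G until the kinase mTORC1 phosphorylates them. Abundance of mRNA was measured here, and neither the proteins nor their phosphorylation were.

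The sequences just upstream of 4 of these genes are shown: PDCD4 for its rise, and EIF4G1, EIF4A3 and EIF4E because they share a short motif but differ in their result. PDCD4 had the largest rise among the 10, EIF4G1 rose, EIF4A3 fell, and EIF4E did not pass the test. They are the 250 bases before the annotated start in RefSeq (GRCh38.p14), 5′ to 3′ on the strand of the gene. These starts differ from those of the genes as counted. By the positions of the count table, the windows of PDCD4, EIF4G1 and EIF4A3 reach into the gene, and that of EIF4E lies wholly within it. Capitals mark 2 motifs searched on both strands, which do not overlap in these windows: the E-box CACGTG, a binding sequence of the MYC and MAX family, and CCAAT, read as ATTGG on the other strand. The windows are chr10:110871678-110871927 on the plus strand for PDCD4, chr3:184314356-184314605 on the plus strand for EIF4G1 (the first of its 3 annotated starts), chr17:80147129-80147378 on the minus strand for EIF4A3 and chr4:98929134-98929383 on the minus strand for EIF4E.
PDCD4: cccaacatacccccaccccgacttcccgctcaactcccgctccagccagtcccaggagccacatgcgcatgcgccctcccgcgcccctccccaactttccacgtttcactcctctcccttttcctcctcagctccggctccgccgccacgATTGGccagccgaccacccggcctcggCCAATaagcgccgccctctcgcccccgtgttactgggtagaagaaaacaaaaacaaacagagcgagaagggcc
EIF4G1: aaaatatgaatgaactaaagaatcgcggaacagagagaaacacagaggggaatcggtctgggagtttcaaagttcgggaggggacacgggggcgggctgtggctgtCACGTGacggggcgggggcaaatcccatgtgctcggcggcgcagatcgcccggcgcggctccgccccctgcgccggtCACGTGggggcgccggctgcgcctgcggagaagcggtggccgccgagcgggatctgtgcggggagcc
EIF4A3: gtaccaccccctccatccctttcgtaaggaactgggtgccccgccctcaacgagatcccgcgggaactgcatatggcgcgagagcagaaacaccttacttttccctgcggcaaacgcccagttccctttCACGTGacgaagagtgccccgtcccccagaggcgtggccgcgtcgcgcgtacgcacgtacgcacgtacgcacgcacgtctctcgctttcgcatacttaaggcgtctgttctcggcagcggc
EIF4E: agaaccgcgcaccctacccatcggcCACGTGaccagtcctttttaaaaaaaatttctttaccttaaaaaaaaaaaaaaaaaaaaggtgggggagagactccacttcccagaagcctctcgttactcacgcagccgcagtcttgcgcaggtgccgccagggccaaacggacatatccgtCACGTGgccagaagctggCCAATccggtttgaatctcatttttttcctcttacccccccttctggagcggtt
The 9 members with a promoter entry had 13 such windows, since some have several starts. The E-box stood in 3 of the 13, 1 each of EIF4G1, EIF4A3 and EIF4E, and in 6.34% of all 35116 windows of the same length. EIF4G1 and EIF4E carried it at 2 places each, which began 144 and 67 bases before the start in EIF4G1 and 225 and 72 bases before it in EIF4E. In EIF4A3 it began 121 bases before the start. PDCD4 held no E-box but CCAAT at 2 places, 100 and 73 bases before its start. CCAAT was also found in 1 window each of EIF4A1, EIF4G2 and EIF4E, 4 of the 13 windows in all, against 32.0% of all windows. The half-site AGGTCA, which nuclear receptors bind, was found upstream of none of the 9 members and in 12.1% of all windows. The repeat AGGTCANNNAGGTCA, a form the vitamin D receptor binds, was found in none of the 9 members, and 2 of all windows held it. EIF4EBP1 had no entry.

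The libraries held between 33268860 and 40928176 counts. Levels are given as CPM, counts scaled to a common library size, with TMM factors that correct for differences in RNA composition. Levels of different genes are compared as RPKM, which also divides by gene length. Fold changes are log2 values of 25(OH)D over control from edgeR. Genes with an adjusted p under 0.05 were called higher or lower (quasi-likelihood test, Benjamini-Hochberg over all 18183 genes). At that threshold 17.3% of all genes tested were higher and 16.5% were lower, and the median absolute log2 fold change over all of them was 0.23. Mitochondrial genes took 7.85% to 7.99% of the counts in control and 8.89% to 9.24% in 25(OH)D. The luminal markers KRT8 and KRT18 had means of 1674 and 537 CPM in control and 1844 and 577 CPM in 25(OH)D. The sums of 4 basal, 3 fibroblast and 2 endothelial markers were at most 1.54, 38.8 and 0.489 CPM in any library. COL1A1 carried the fibroblast sum, with means of 37.5 CPM in control and 33.1 CPM in 25(OH)D. COL1A2 and PDGFRB had at most 16 and 4 counts in any library. The 3 leukocyte markers summed to between 4.03 and 5.68 CPM in control and between 13.1 and 19.3 CPM in 25(OH)D. That sum was carried by CD68, with 167, 211 and 192 counts in control and 543, 498 and 628 in 25(OH)D, while PTPRC and CD3E had at most 6 counts in any library.

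PDCD4 (chr10:110871795-110900006, plus strand) stood apart from the other 9 genes. The 3 control libraries had 312, 322 and 328 CPM, and the 3 libraries with 25(OH)D had 2375, 2344 and 2300 CPM. The groups were far apart, and the lowest library with 25(OH)D was 7.01 times the highest control library. The means were 320.7 ± 8.28 CPM in control and 2340 ± 37.6 CPM in 25(OH)D (SD, n = 3), a log2 fold change of 2.87 (SE 0.035) or 7.29-fold. Per length, PDCD4 went from 71.6 ± 1.59 to 506 ± 9.48 RPKM. It took 0.0317% to 0.0331% of all counts in control and 0.225% to 0.233% in 25(OH)D. By log2 fold change it was number 137 of the genes tested and number 75 of the 13016 with a mean of at least 100 counts. In absolute gain it was the third of all genes, with 2019 CPM more in 25(OH)D. The antisense orientation of BBIP1 touches this value: the exons of PDCD4 and BBIP1 overlap on opposite strands over 1277 bases, 28.1% of the exon bases of PDCD4. That share of the PDCD4 counts would be between 21049 and 25311 in the libraries with 25(OH)D, while BBIP1 was given between 1402 and 1666 counts there.

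**Figure D1:**
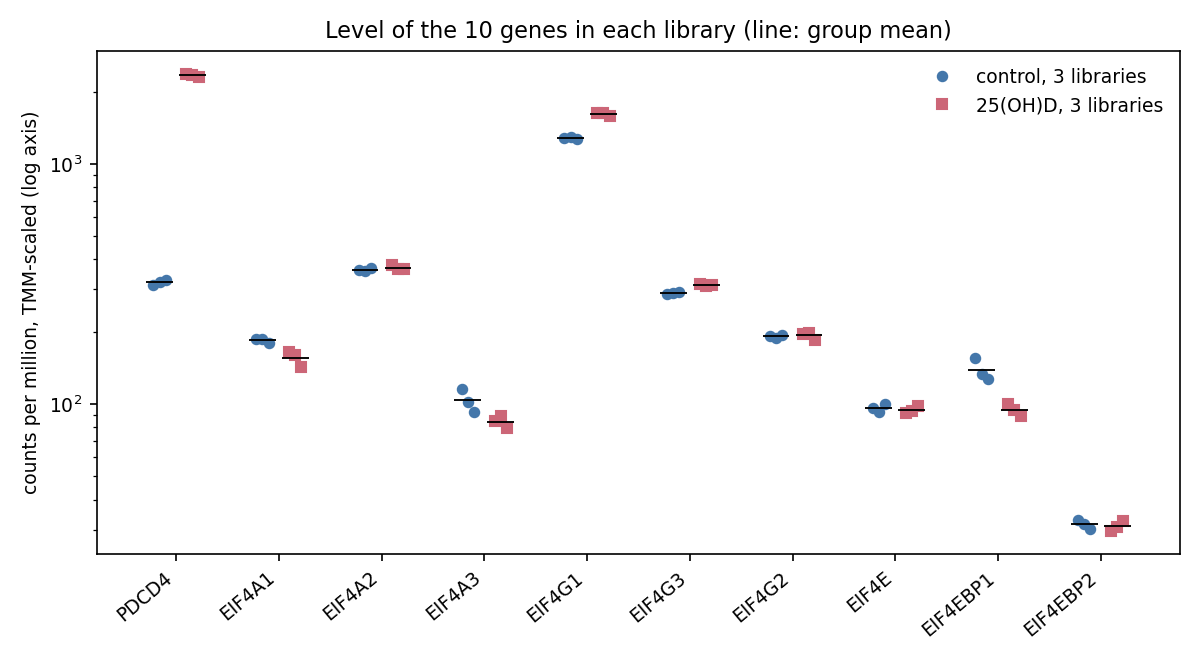
Level of each of the 10 genes in every library, in TMM-scaled CPM on a log axis. Circles are the 3 control libraries, squares the 3 libraries with 25(OH)D, and lines the group means. PDCD4 moves from 320.7 to 2340 CPM, above EIF4G1, while each of the other 9 genes differs far less between the groups.

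Of the 9 other members, 2 were called higher, EIF4G1 and EIF4G3, 3 were called lower, EIF4A1, EIF4A3 and EIF4EBP1, and 4 did not pass the test, EIF4A2, EIF4G2, EIF4E and EIF4EBP2. The call of EIF4G3 was lost under other scalings. These counts stand beside 17.3% higher and 16.5% lower among all genes tested. The median log2 fold change of the 9 was -0.028, and that of all genes tested was -0.011. None passed an absolute log2 fold change over 1 with an unadjusted p under 0.05, limits at which 4.02% of all genes were higher and 2.63% were lower. In 5 of the 9 the groups did not overlap, which held for 45.7% of all genes.

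**Figure D2:**
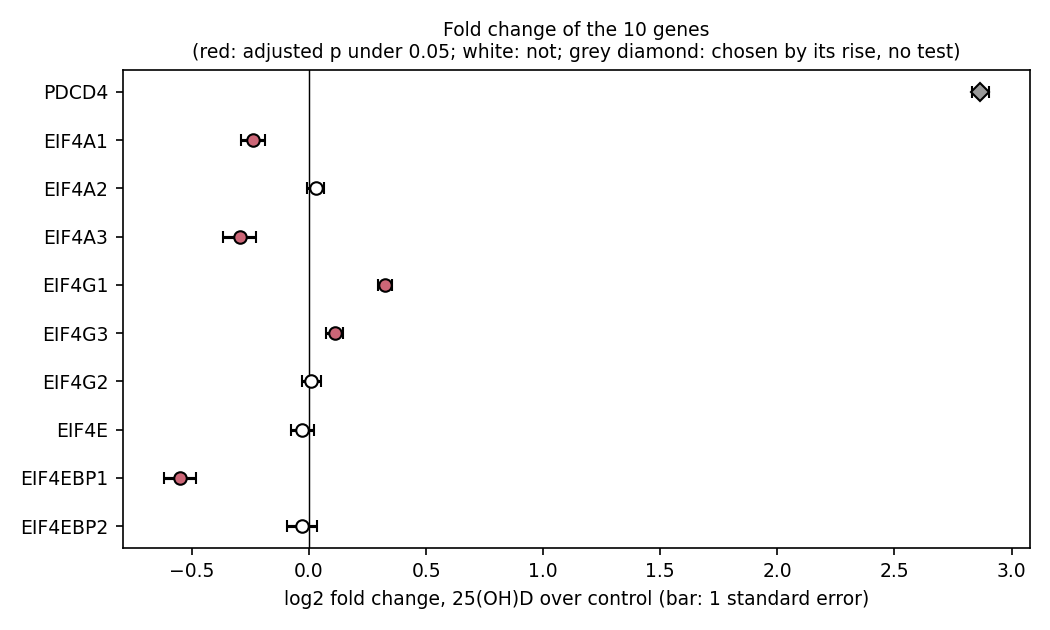
Log2 fold change of 25(OH)D over control for the 10 genes, with bars of 1 standard error. Red points passed an adjusted p under 0.05, white points did not, and the grey diamond is PDCD4, which has no test. PDCD4 stands at 2.87, and the other 9 lie between -0.55 and 0.33.

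The eIF4A helicases, to which PDCD4 binds, did not move together. EIF4A1 (chr17:7572706-7579005, plus strand) is usually named as the main helicase of eIF4F, although EIF4A2 had the higher RPKM here. EIF4A1 had 187, 186 and 179 CPM in control and 165, 160 and 143 CPM in 25(OH)D. Every library with 25(OH)D was below every control library. The log2 fold change was -0.24 (SE 0.051, adjusted p = 0.00220), a level 15.3% lower. EIF4A2 (chr3:186783205-186789900, plus strand), its close paralog, had 362, 359 and 367 CPM in control and 380, 364 and 365 CPM in 25(OH)D. The groups overlapped, and the log2 fold change was 0.03 (SE 0.035, adjusted p = 0.587). EIF4A3 (chr17:80135214-80147183, minus strand) belongs to the same helicase family and is the RNA clamp of the exon junction complex, which marks spliced mRNA. It had 116, 102 and 92.8 CPM in control and 84.8, 88.7 and 79.7 CPM in 25(OH)D. The groups did not overlap, although the first control library lay well above the other two. The log2 fold change was -0.30 (SE 0.070, adjusted p = 0.00447).

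Reads of EIF4A1 could also be counted for other genes. Its exons share 1586 bases with the read-through gene SENP3-EIF4A1 and 2186 bases with RP11-186B7.4, both on the same strand. SENP3-EIF4A1 has only 422 of 3519 exon bases outside other genes, and yet it had between 6689 and 7936 counts in control and between 4778 and 6315 in 25(OH)D, close to the 6602 to 7785 and 4658 to 6144 of EIF4A1 itself. Reads may thus have been counted for more than one name, which was not tested. With the counts of both genes added, the log2 fold change of EIF4A1 was -0.23. As both had nearly the same counts in each library, this sum could hardly differ from EIF4A1 alone and is no check on it. The part of RP11-186B7.4 was not tested. EIF4A1 also had 35.6% of its stretches of 100 transcript bases in common with transcripts of 8 other genes in GENCODE 29, against 6.03% for EIF4A2 and 0% for EIF4A3. EIF4A2 overlaps 6 other genes, of which RP11-573D15.9 takes the most, 7.09% of its exon bases. EIF4G2 shares 122 bases with SNORD97 and 134 with RP11-685M7.5, and EIF4E 171 bases with TBCAP3 and 62 with RP11-571L19.7, at most 1.55% of the member in each case. CD68, the one leukocyte marker with more than a few counts, lies within 500 kb of EIF4A1, and its part in the value of EIF4A1 was not tested.

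The eIF4G scaffolds moved up or did not pass the test. EIF4G1 (chr3:184314495-184335358, plus strand), the main scaffold, which joins eIF4E, eIF4A and eIF3, had 1283, 1297 and 1273 CPM in control and 1629, 1624 and 1576 CPM in 25(OH)D. The libraries of each group lay close together and the groups were well separated. The log2 fold change was 0.33 (SE 0.031, adjusted p = 1.36e-06), or 1.25-fold. EIF4G3 (chr1:20806292-21176888, minus strand), a paralog with the same binding regions, had 287, 289 and 292 CPM in control and 315, 309 and 312 CPM in 25(OH)D. These groups did not overlap either, but the difference was small. The log2 fold change was 0.11 (SE 0.035, adjusted p = 0.0250), and it fell to 0.07 (adjusted p = 0.179) with upper-quartile factors and to 0.07 (adjusted p = 0.158) with library sizes alone. It also missed the threshold without control replicate 1, control replicate 2 or 25(OH)D replicate 1, with adjusted p = 0.0659, 0.0664 and 0.0673 in edgeR. EIF4G2 (chr11:10797050-10809110, minus strand) encodes a scaffold that binds eIF4A but not eIF4E. It had 192, 188 and 194 CPM in control and 196, 198 and 186 CPM in 25(OH)D. The groups overlapped, with a log2 fold change of 0.01 (SE 0.040, adjusted p = 0.871) whose sign turned with upper-quartile factors (-0.03).

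Of EIF4E and its binding proteins, EIF4EBP1 alone was called, and it was lower. EIF4E (chr4:98871684-98930637, minus strand), the cap-binding subunit, had 96.3, 92.9 and 100.2 CPM in control and 92.1, 93.4 and 98.3 CPM in 25(OH)D. The groups overlapped almost fully, and the log2 fold change was -0.03 (SE 0.047, adjusted p = 0.694). EIF4EBP1 (chr8:38030341-38060365, plus strand), the best known repressor of eIF4E, had 155, 133 and 127 CPM in control and 100.2, 94.7 and 88.9 CPM in 25(OH)D. All libraries with 25(OH)D lay below all control libraries. The log2 fold change was -0.55 (SE 0.068, adjusted p = 1.83e-05), a level 31.8% lower and the largest change among the 9. EIF4EBP2 (chr10:70404379-70428618, plus strand), its paralog, had 33.0, 31.6 and 30.3 CPM in control and 29.6, 30.7 and 32.6 CPM in 25(OH)D. The groups overlapped, with a log2 fold change of -0.03 (SE 0.064, adjusted p = 0.770).

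Compared per length, the members spanned a wide range. EIF4G1 was the highest in control at 158 ± 2.16 RPKM, followed by EIF4EBP1 at 131 ± 14.4, PDCD4 at 71.6 ± 1.59, EIF4A2 at 59.996 ± 0.438 and EIF4A1 at 35.1 ± 0.962 RPKM. EIF4G1 and EIF4EBP1 were separated by more than the spread of the control libraries, and PDCD4, EIF4A2 and EIF4A1 each lay below the one before by more than that spread. EIF4G3 at 30.6 ± 0.158, EIF4G2 at 22.5 ± 0.272 and EIF4A3 at 21.2 ± 2.47 RPKM followed, and the last pair lay within the spread of EIF4A3. EIF4E at 6.96 ± 0.235 RPKM and EIF4EBP2 at 4.42 ± 0.204 RPKM were the lowest. The order rests on the gene lengths of the table, which add up all annotated exons: EIF4E was given 14067 bases and EIF4EBP1 1073, so a gene with a long, rarely used exon is set too low. With 25(OH)D PDCD4 became the highest at 506 ± 9.48 RPKM, above EIF4G1 at 192 ± 4.30 and EIF4EBP1 at 86.8 ± 5.29 RPKM.

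The balance between members was followed as the ratio of RPKM values within each library, which does not depend on the scaling of the libraries. EIF4A2 over EIF4A1 was 1.68, 1.67 and 1.77 in control and 1.99, 1.98 and 2.22 in 25(OH)D, so the share of EIF4A2 was higher in every library with 25(OH)D. EIF4A1 and EIF4A2 together over EIF4G1 went from 0.603 ± 0.0065 to 0.460 ± 0.0102 (SD, n = 3). EIF4E over EIF4G1 went from 0.0441 ± 0.00209 to 0.0345 ± 0.00184. Both show less helicase and less cap-binding mRNA for each unit of scaffold mRNA. The paralogs EIF4G3 and EIF4G2 over EIF4G1 went from 0.194 ± 0.00299 to 0.167 ± 0.00329 and from 0.142 ± 0.00351 to 0.114 ± 0.00194. EIF4EBP1 over EIF4EBP2 went from 29.6 ± 1.96 to 20.7 ± 2.21. Both binding proteins together over EIF4E went from 19.5 ± 2.28 to 13.8 ± 1.21. The 7 ratios are not separate cases, since 4 have EIF4G1 below the line and 2 hold EIF4EBP1, whose own changes they carry. The groups did not overlap in any of the 7. The share without overlap was 45.7% for single genes, and it was not computed for ratios, so the 2 cannot be set against each other. Each ratio gave p = 0.1 in a two-sided exact permutation test (n = 3 in each group, adjusted over the 7 p = 0.1). That is the smallest p that 3 libraries against 3 allow, so this test could not pass 0.05. PDCD4 over EIF4A1 and EIF4A2 together, which takes in the gene chosen by its rise and was not tested, went from 0.752 ± 0.0220 to 5.74 ± 0.119.

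**Figure D3:**
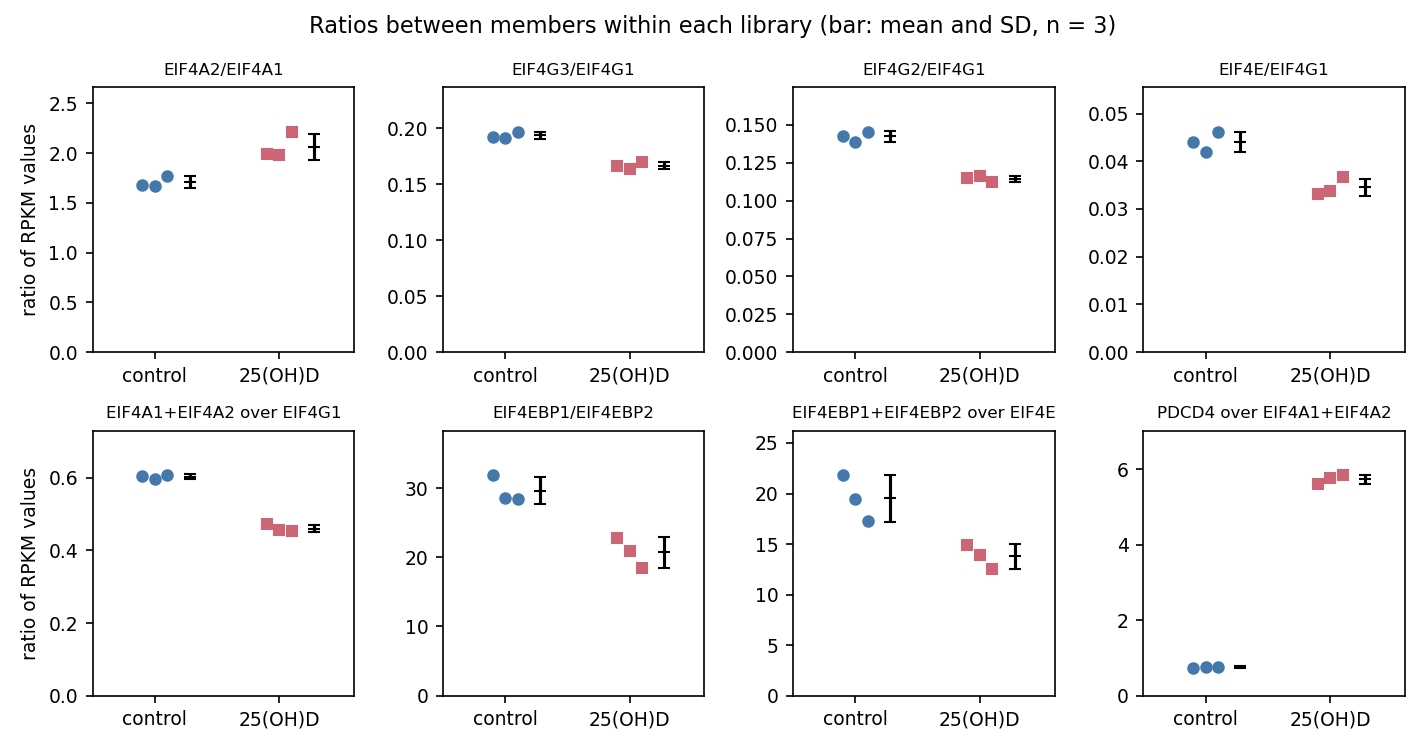
Ratios of RPKM values between members within each library, each panel with its own axis from 0. Circles are the 3 control libraries, squares the 3 libraries with 25(OH)D, and bars the mean with its SD. EIF4A2 over EIF4A1 and PDCD4 over both helicases are higher with 25(OH)D, and the other 6 ratios are lower.

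The rise of PDCD4 was shared by the genes beside it. These neighbours were examined after their values had been seen, so they are described without a test. Of the 13 genes with enough counts within 1000 kb on either side, 8 had a log2 fold change over 1, PDCD4 included, and no other tested gene lay between them over 369.3 kb (chr10:110644397-111013667). Among all genes tested, 4.02% had a log2 fold change over 1 with an unadjusted p under 0.05 in edgeR, a stricter limit. RBM20, a splicing regulator best known from heart muscle, had 4, 18 and 18 counts in control and 285, 400 and 320 in 25(OH)D. Its log2 fold change was 4.76 (SE 0.284), although it fell to 1.03 on the scale of log2(RPKM + 1). PDCD4-AS1, which starts within PDCD4 on the other strand and runs away from it, had 22, 20 and 29 counts in control and 467, 529 and 521 in 25(OH)D. The antisense gene was low throughout, with a mean of 0.615 ± 0.150 CPM in control and 14.3 ± 1.44 CPM in 25(OH)D (log2 fold change 4.54, SE 0.166), and it shares no exon base with PDCD4. BBIP1, a subunit of the BBSome of cilia, went from 11.3 ± 1.27 to 43.2 ± 0.192 CPM (1.94, SE 0.079). SHOC2, a scaffold of RAF activation whose annotated start lies close to that of BBIP1 on the other strand, had 45.4, 51.4 and 52.2 CPM in control and 201, 201 and 199.8 CPM in 25(OH)D (2.02, SE 0.053). The noncoding genes RP11-313D6.3, RP11-348N5.7 and RP11-348N5.9 had log2 fold changes of 3.57, 3.43 and 1.61 from at most 65 counts in any control library. The 8 genes are not all separate cases. RP11-313D6.3 lies largely within the span of PDCD4-AS1, and RP11-348N5.7 and RP11-348N5.9 lie within that of BBIP1, each on the opposite strand. BBIP1 in turn shares 1277 exon bases with PDCD4. The strand setting of the counts is not given, and whether reads were counted for more than 1 of these genes was not tested.

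The genes outside this stretch did not follow it. SMC3, a cohesin subunit and the next tested gene before RBM20, went from 569 ± 14.8 to 441 ± 16.5 CPM (log2 fold change -0.37, SE 0.038). Further out, DUSP5, SMNDC1, MXI1 and XPNPEP1 had log2 fold changes of 0.46, -0.32, 0.23 and 0.26. On the other side the next tested gene was GPAM, 1136 kb past the end of SHOC2, at -0.24. Within 500 kb of PDCD4, 7 of the 9 other tested genes had a log2 fold change over 1, with a median of 2.02, beside the 4.02% of all genes given above. The same window held 3 of 59 such genes around EIF4A1, 4 of 23 around EIF4EBP1, 2 of 21 around EIF4A3, 1 of 8 around EIF4E, and none around EIF4A2, EIF4G1, EIF4G2, EIF4G3 and EIF4EBP2, whose windows held 7 to 18 tested genes. Promoter entries existed for 5 of the 8 genes of the stretch, of which PDCD4-AS1 alone held the half-site AGGTCA, and none held the repeat.

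**Figure D4:**
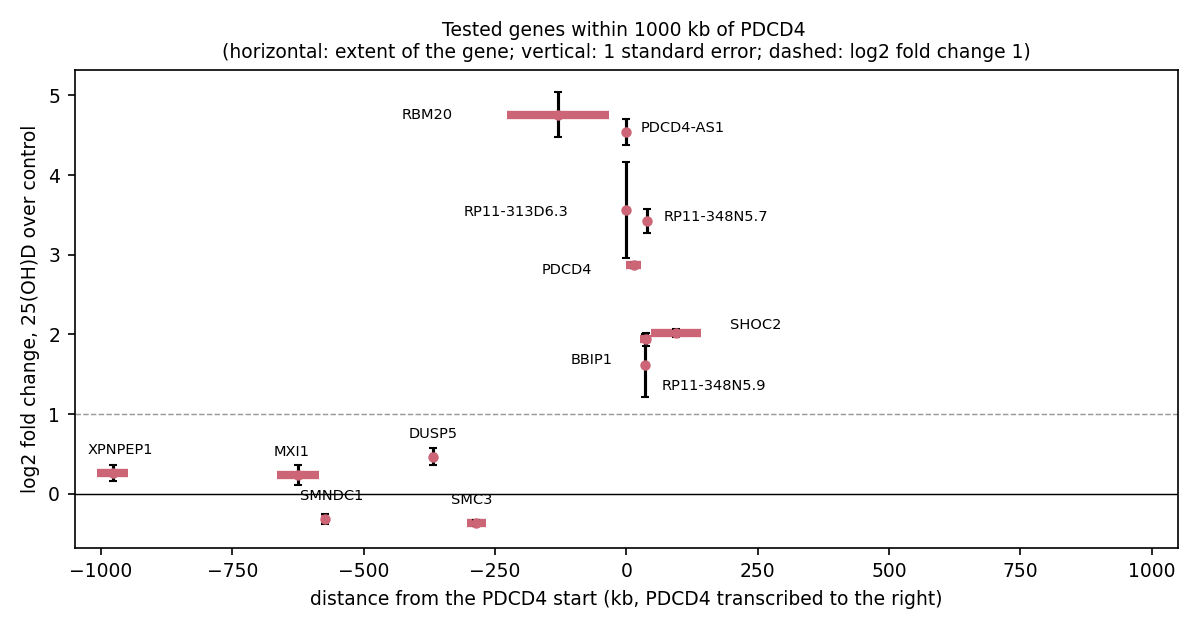
Log2 fold change of the 13 tested genes within 1000 kb of PDCD4 against the distance from the PDCD4 start in kb. Horizontal bars show the extent of each gene, vertical bars 1 standard error, and the dashed line a log2 fold change of 1. The 8 genes from RBM20 to SHOC2 lie above the line, and SMC3, DUSP5, SMNDC1, MXI1 and XPNPEP1 lie between -0.37 and 0.46.

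The genes whose profile was nearest to that of PDCD4 over the 6 libraries lay on other chromosomes. Likeness was the root mean square difference of log2 CPM after each gene was set to its control mean. With 2 groups this mostly finds genes whose rise is near the 2.87 of PDCD4 and whose libraries differ little. The log2 fold changes of the 5 nearest were between 2.80 and 2.96. As PDCD4 was chosen by that same rise, the list is a description, and shared control was not tested. The nearest were NBPF1 on chromosome 1 (0.065), a member of the neuroblastoma breakpoint family with many near copies, TREX2 on X (0.067), a DNA exonuclease, and SYTL5 on X (0.069), an effector of RAB GTPases. HAUS7 on X (0.080), a subunit of the augmin complex of the spindle, and PKHD1 on chromosome 6 (0.097), which encodes fibrocystin, followed. TREX2 and HAUS7 share 1414 exon bases, 52.1% of those of TREX2, so they are not separate cases. Their levels differed widely from that of PDCD4: NBPF1 rose from a mean of 49.4 to 368 CPM and PKHD1 from 2.63 to 18.8 CPM.

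Around the 10 genes, 90 other genes of initiation and its control were counted in 8 lists, and all 90 were tested. Of these, 11 were called higher, 24 lower and 55 did not pass the test, beside 17.3% higher and 16.5% lower among all genes. The same shares of all genes stand beside the counts of each list below. With library sizes alone the split was 8 higher and 34 lower. The median log2 fold change over the 90 genes was -0.06, and none passed an absolute log2 fold change over 1.

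Of 14 further cap-binding and eIF4 factors, 3 were higher and 5 lower. PABPC1, the poly(A)-binding protein that touches eIF4G, had 1190, 1216 and 1262 CPM in control and 1536, 1478 and 1491 CPM in 25(OH)D (log2 fold change 0.30, SE 0.034, adjusted p = 8.61e-06 in edgeR). EIF4B, a partner that raises the activity of eIF4A, had 542, 519 and 539 CPM in control and 420, 409 and 410.4 CPM in 25(OH)D (-0.37, SE 0.035, adjusted p = 1.37e-06 in edgeR). Both genes were named for the smallest p of their direction in this list. Their opposite directions and the lack of overlap between groups come with that choice. The 45.7% of all genes without overlap is thus no measure for them. The others, named after their values were seen, were PAIP2 at 0.17 and MKNK1 at 0.24, which were higher, and MKNK2 at -0.62, PAIP2B at -0.52, EIF4E3 at -0.31 and LARP1 at -0.20, which were lower. MKNK1 and MKNK2 encode the kinases that phosphorylate eIF4E, PAIP2 and PAIP2B repressors of the poly(A)-binding protein. In both pairs one paralog was called higher and the other lower, but the pairs were picked after their values were seen. PAIP2B was far lower in level, with a mean of 12.5 CPM in control against 445 CPM for PAIP2. Beside PABPC1 and EIF4E3, the related PABPC4 and EIF4E2 did not pass the test.

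Of the 14 subunits of eIF3, which joins eIF4G to the ribosome, 1 was higher and 6 were lower. EIF3I had 62.0, 61.6 and 58.9 CPM in control and 83.5, 86.2 and 84.2 CPM in 25(OH)D (log2 fold change 0.48, SE 0.047, adjusted p = 2.10e-06 in edgeR). EIF3E, which is held to bind eIF4G, had 67.9, 67.0 and 67.6 CPM in control and 52.7, 53.7 and 49.5 CPM in 25(OH)D (-0.38, SE 0.051, adjusted p = 4.68e-05 in edgeR). Of these subunits EIF3I alone was called higher. EIF3G, EIF3L, EIF3CL, EIF3C and EIF3D were also lower, at -0.21, -0.16, -0.15, -0.14 and -0.13. EIF3C and EIF3CL are near-identical copies whose reads cannot be assigned with certainty. The count of lower subunits dropped to 2 without control replicate 1 or without 25(OH)D replicate 3.

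The 18 factors of the preinitiation complex and of subunit joining gave 1 higher and 5 lower. EIF5, which triggers GTP hydrolysis on eIF2, went from 149 ± 4.28 to 167 ± 1.81 CPM (log2 fold change 0.17, SE 0.040, adjusted p = 0.00479 in edgeR). EIF2S2, the beta subunit of eIF2, went from 574 ± 32.8 to 452 ± 24.8 CPM (-0.35, SE 0.048, adjusted p = 5.78e-05 in edgeR). The other subunits of eIF2 were also lower, EIF2S1 at -0.21 and EIF2S3 at -0.19, as were EIF1AX at -0.30 and EIF1 at -0.29, these names having been added after their values were seen. The count of higher factors was 2 with DESeq2, without control replicate 3 or without 25(OH)D replicate 3, and 3 with no filter on low counts. Of the 6 kinases and phosphatase subunits that act on eIF2, 2 were higher and 1 lower. EIF2AK4, the kinase GCN2 that senses amino acid shortage, had 151.7, 152.7 and 146.9 CPM in control and 207, 209.7 and 218.5 CPM in 25(OH)D (0.49, SE 0.040, adjusted p = 2.71e-07 in edgeR). EIF2AK2, the kinase PKR of the antiviral response, was higher at 0.36, and PPP1R15A, a phosphatase subunit induced by stress, was lower at -0.19 (SE 0.055, adjusted p = 0.0145 in edgeR). The call of PPP1R15A was lost without control replicate 3, 25(OH)D replicate 1 or 25(OH)D replicate 3 (adjusted p = 0.0856, 0.0556 and 0.0564 in edgeR).

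Of the 22 genes of mTORC1 and the S6 kinases, which control both PDCD4 and the 4E-binding proteins, 1 was higher and 5 were lower. SESN2, a leucine sensor that restrains mTORC1, had 23.9, 21.4 and 22.1 CPM in control and 13.3, 13.8 and 10.6 CPM in 25(OH)D. It was lower in every library with 25(OH)D and had the lowest log2 fold change of the 90 genes, -0.84 (SE 0.097, adjusted p = 1.03e-05 in edgeR). DEPTOR, an inhibitor within the complex, was lower at -0.66, EEF2K, the kinase that stops elongation, at -0.36, RPS6, the substrate of S6 kinase, at -0.31, and EEF2, the elongation factor, at -0.26. TSC2, which holds back RHEB, was higher at 0.19 (SE 0.063, adjusted p = 0.0296 in edgeR), and this call was lost in 6 of 15 alternatives. These were upper-quartile factors (adjusted p = 0.0800 in edgeR), library sizes alone and limma on log2(RPKM + 1) and log2(RPKM + 0.1). The others were the fits without control replicate 1 (0.0765) or 25(OH)D replicate 3 (0.0912). MTOR, RPTOR, RPS6KB1 and RPS6KB2 did not pass the test.

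Of the 6 genes by which PDCD4 protein is turned over, 3 were higher and none was called lower (0 at an unadjusted p under 0.05 in edgeR, 0 with DESeq2). BTRC had 20.6, 19.1 and 19.6 CPM in control and 24.2, 22.5 and 23.8 CPM in 25(OH)D (log2 fold change 0.25, SE 0.070, adjusted p = 0.0127 in edgeR). FBXW11, its paralog, was higher at 0.30 and SKP1, the adaptor of both, at 0.14. The groups did not overlap in any of the 3, but these are the genes that were called, so this is no added result. The 45.7% of all genes without overlap is no measure for genes picked by their call. The count was 1 with library sizes alone and 0 with limma on RPKM, and leaving out 1 library gave 1 (control replicate 2, 25(OH)D replicate 1 or 25(OH)D replicate 2) to 5 (25(OH)D replicate 3). Of the 5 partners of EIF4A3 in the exon junction complex, 2 were lower, CASC3 at -0.14 (SE 0.042, adjusted p = 0.0162 in edgeR) and CWC22 at -0.14, and the count was 0 without control replicate 3 or without 25(OH)D replicate 2, 1 without control replicate 2 or 25(OH)D replicate 1, and 4 with no filter on low counts. Of 5 other genes with the MA3 or MIF4G domains found in PDCD4 and eIF4G, none was called by edgeR (0 at an unadjusted p under 0.05, 0 with DESeq2), and the values lay between -0.08 and 0.16.

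**Figure D5:**
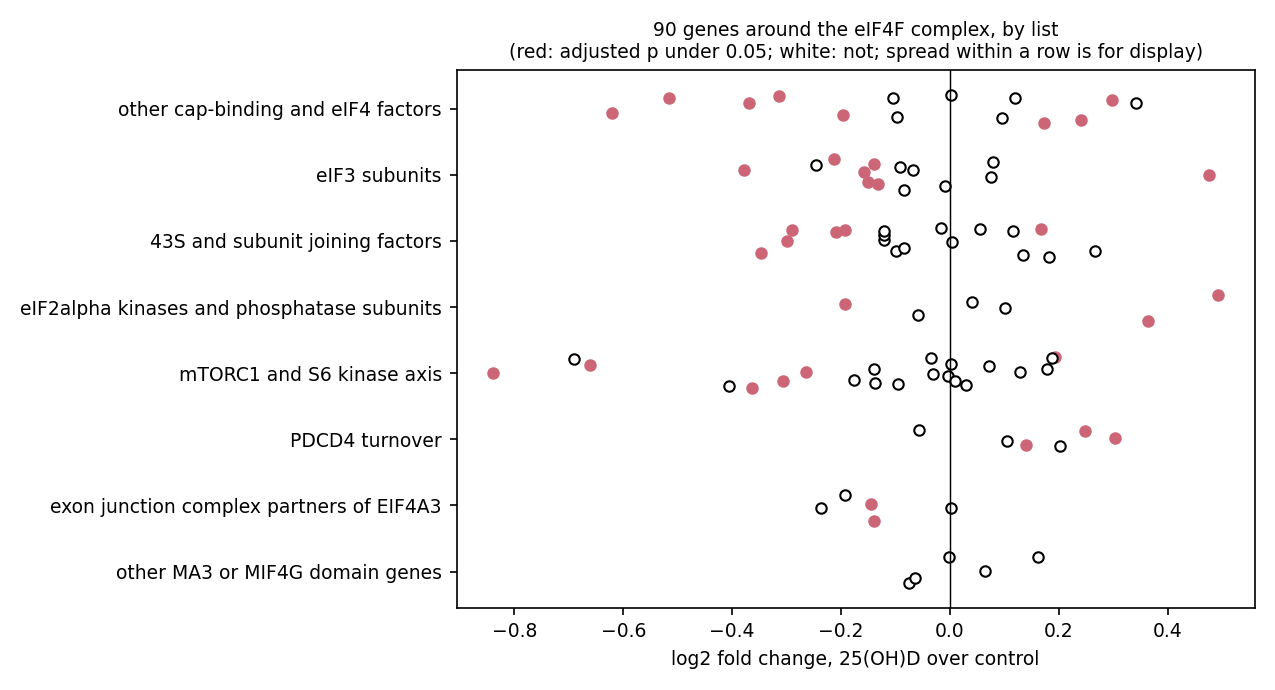
Log2 fold change of 25(OH)D over control for 90 genes around eIF4F, 1 row for each of 8 lists. Red points passed an adjusted p under 0.05 (11 higher, 24 lower) and white points did not (55). SESN2 lies lowest at -0.84 and EIF2AK4 highest at 0.49.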

How the data were processed

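mRNA of 6 MDA-MB-453 libraries, 3 from 100 nM 25(OH)D and 3 from solvent at day 5, was grouped by the sample labels. The authors deposited raw counts of reads on each gene and RPKM values, which equal each count divided by gene length and by the total of its library (largest relative difference 2.23e-13). The submitters' processing notes name Trimmomatic 0.36, featureCounts of Subread 1.5.1, edgeR 3.12.1 and GRCh38. The aligner, the annotation release and the strand setting are not given in the sources used here. Of the counts between 2 and 20, 76.0% were even, against 53.1% above 20, so the mates of a pair appear to have been counted separately. Depth was 33268860 to 40928176 counts, and this limits precision for genes with few counts.

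The fit to the counts used edgeR 4.0.16 in R 4.3.3 (TMM, low-count filter with a minimum count of 10, quasi-likelihood test without covariates, Benjamini-Hochberg over 18183 genes). The biological coefficient of variation was 0.0788. The script was tested on simulated data. Alternatives were upper-quartile and RLE factors, library sizes alone, no filter, DESeq2 1.42.0, a replicate block, limma 3.58.1 on log2(RPKM + 1) and log2(RPKM + 0.1), SENP3-EIF4A1 added to EIF4A1, and each library left out. Ratios were compared by exact permutation. Python 3.11.15 with numpy 2.4.6, pandas 2.3.3 and scipy 1.17.1 served for the rest, matplotlib 3.10.9 for the plots.

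The members and lists were chosen with earlier results of these data known. The genes named were the 10 members, the gene of smallest p in each direction in each list, the 5 profiles nearest to PDCD4, and genes whose exons overlap a member. Other names were added after their values were seen. Promoter windows came from RefSeq (GRCh38.p14), with entries for 9 of the 10 members, and transcripts from GENCODE 29. Some genes are not reported here.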

Additional observations from a re-analysis of the deposited data

How the results depend on the processing

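EIF4A1, EIF4A3, EIF4G1 and EIF4EBP1 kept their direction and call under all 15 alternatives, with log2 fold changes of -0.28 to -0.17, -0.36 to -0.20, 0.28 to 0.35 and -0.60 to -0.46. The alternative with SENP3-EIF4A1 added could hardly move EIF4A1, as the counts of both were nearly the same. PDCD4 stayed between 2.81 and 2.89. Members called higher were 1 in place of 2 with upper-quartile factors, library sizes alone and limma on log2(RPKM + 1) and log2(RPKM + 0.1), and 1 to 2 with a library left out, where EIF4G3 was the gene lost. Members called lower were 3 throughout. List genes called higher were 6 in place of 11 with both limma fits, and 9 to 15 with a library left out. Upper-quartile factors gave 9 higher and 33 lower. The signs of genes that were not called turned: EIF4A2 to -0.013, -0.016, -0.016 and -0.016 and EIF4G2 to -0.031, -0.034, -0.033 and -0.034 with upper-quartile factors, library sizes alone and both limma fits in that order, and, with a library left out, EIF4G2 (-0.00021 to 0.049, below 0 without 25(OH)D replicate 2), EIF4E (-0.049 to 0.0066, above 0 without control replicate 3) and EIF4EBP2 (-0.055 to 0.0084, above 0 without control replicate 1 or 25(OH)D replicate 1). The cause was not tested. The equal replicate numbers did not pair the libraries (correlations of deviations -0.17, 0.033 and -0.11). A fit with the replicate number as a block called 2 members higher and 3 lower, and 12 list genes higher and 27 lower. Of the neighbours of PDCD4, RP11-348N5.9 fell to 0.75 with limma on log2(RPKM + 1), and the other 6 stayed above 1 in every setting. Depth limits RBM20 and the noncoding neighbours, which had few counts in control.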
